A study of Mus musculus with 9 samples.

Results

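The 30 genes described here mark the neurons, glia and neural crest cells that lie in and beside the embryonic pancreas. They were chosen by name for their known roles, but with earlier results of these data known. Their counts beside the shares of all genes are therefore a description. All 30 were found among the 18541 genes of the deposited table. Of these, 3 stood under an older symbol (Nefm as Nef3, Prph as Prph1, Map2 as Mtap2). The tissue was epithelium of the dorsal pancreas, dissected by hand from mouse embryos at e12.5, and its transcripts were read on Agilent arrays with 1 dye. The 9 samples form 3 groups of 3, and each sample pooled the RNA of 3 dorsal pancreata. The double heterozygotes (Sox9fl/+; Foxa3-Cre; Pdx1-/+) had lost 1 allele each of Sox9 and Pdx1. The Sox9 heterozygotes (Sox9fl/+; Foxa3-Cre) had lost 1 Sox9 allele through Cre recombination, and the Pdx1 heterozygotes (Pdx1-/+) carried 1 Pdx1LacZko allele. The groups are littermates, and wild-type embryos were not analysed here. Foxa3-Cre recombines in endoderm, the germ layer of the pancreatic epithelium, from which neural crest cells do not derive. The label of the Pdx1 heterozygotes names no Foxa3-Cre, so in any comparison with them the loss of a Sox9 allele and the transgene cannot be told apart. A double-heterozygote sample carries the numbers 3 and 4 in its title and is called sample 3 here.

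Neural crest cells migrate from the dorsal neural tube and reach the pancreatic bud early, where they give rise to the autonomic neurons and the glia of the organ. Glial and crest precursors are known by the transcription factors Sox10 and Foxd3, and pigment cells are another branch of the same lineage. Neurons that form from the precursors switch on RNA-binding proteins of the Elavl family, neuronal tubulin and neurofilaments. Some neuronal genes, among them Uchl1, Ncam1 and Isl1, are also active in endocrine cells of the pancreas.

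Dct, which encodes dopachrome tautomerase, an enzyme of melanin synthesis in pigment cells, was the single member that differed between genotypes after adjustment over all genes. Its upstream sequence is shown with those of Ednrb, an endothelin receptor of the same lineage, and of Tubb3, a neuronal tubulin, both of which had an adjusted p above 0.05 in the fit to all 9 samples (limma). Each is the stretch of 250 bases before the start in RefSeq's annotation of mouse build GRCm38.p6, at chr14:118052247-118052496 on the minus strand for Dct, chr14:103843702-103843951 on the minus strand for Ednrb and chr8:123411303-123411552 on the plus strand for Tubb3. Capitals mark ACAAAG and ACAATG, core sequences bound by SOX factors, and CATGTG, a core sequence bound by MITF, the regulator of pigment cell genes, on either strand.
Dct: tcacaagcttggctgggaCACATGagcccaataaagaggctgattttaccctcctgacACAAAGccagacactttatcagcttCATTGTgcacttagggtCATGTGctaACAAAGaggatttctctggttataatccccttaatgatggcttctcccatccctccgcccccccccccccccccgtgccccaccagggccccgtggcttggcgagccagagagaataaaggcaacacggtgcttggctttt
Ednrb: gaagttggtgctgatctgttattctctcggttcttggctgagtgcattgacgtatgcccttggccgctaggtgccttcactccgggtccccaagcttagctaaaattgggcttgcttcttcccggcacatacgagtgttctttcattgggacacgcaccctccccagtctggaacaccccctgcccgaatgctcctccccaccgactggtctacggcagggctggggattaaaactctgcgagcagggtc
Tubb3: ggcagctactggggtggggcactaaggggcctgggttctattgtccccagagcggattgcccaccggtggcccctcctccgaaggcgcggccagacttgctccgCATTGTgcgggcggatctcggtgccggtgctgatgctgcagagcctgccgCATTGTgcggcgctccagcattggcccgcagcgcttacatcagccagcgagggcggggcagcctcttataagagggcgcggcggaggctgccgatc
The Dct stretch holds 2 matches to ACAAAG, 1 to ACAATG and 2 to CATGTG. The Tubb3 stretch holds 2 matches to ACAATG, and none of these letters was found in the Ednrb stretch. RefSeq's table held a window for 22 of the 30 members and not for Stmn2, Erbb3, Nefl, Sox10, Ncam1, Nefm, Gap43 and Ret. ACAAAG was found for 4 of the 22 (Dct, Dcx, Elavl2, Stmn3), against 16.5% of all 32851 windows. ACAATG was found for 4 of the 22 (Chrna3, Dct, Elavl4, Tubb3), against 10.7% of windows. CATGTG was found for 4 of the 22 (Chrna3, Dbh, Dct, Elavl2), against 12.3% of windows, and this motif was added after the values of Dct had been seen. CATGTG is 1 form of the wider motif CANNTG, which was present for 15 of the 22 members and in 66.2% of windows. A match to a short motif is a description of the sequence and does not show that a factor binds there.

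The deposited values are probe intensities on a linear scale, with array medians between 347 and 353 and lower quartiles between 117 and 122. Means of 5 members (Ret, Chrna3, Map2, Erbb3, L1cam) lay below the lower quartile of all genes, where a probe tells little about a difference. In these bulk samples, fewer cells of a type and less RNA per cell cannot be told apart. The p-values set each group difference against the spread between these pooled samples. The spread between single embryos within a pool was not measured. Epcam, an adhesion protein of epithelia, had 10705, 9437 and 10874 intensity units in double heterozygotes, 9367, 10134 and 10001 in Sox9 heterozygotes and 10501, 8849 and 10988 in Pdx1 heterozygotes, so the labelled tissue carried its marker in every sample. Foxa3, whose regulatory sequence drives the transgene, read 1105, 1006 and 1193 in double heterozygotes and 1029, 987 and 1002 in Sox9 heterozygotes, against 521, 545 and 548 in Pdx1 heterozygotes (log2 ratio of double over Pdx1 heterozygotes 1.03, adjusted p = 0.00366, limma). The Sox9 probe read 292, 328 and 381 in double heterozygotes, 294, 294 and 325 in Sox9 heterozygotes and 239, 198 and 234 in Pdx1 heterozygotes, so it was not lower where an allele was lost. The sources used here do not say whether that probe lies in the deleted part of Sox9. The Pdx1 probe read 1203, 1143 and 1352 in double heterozygotes, 1316, 1573 and 1502 in Sox9 heterozygotes and 1132, 1098 and 1080 in Pdx1 heterozygotes. Across all genes, sample 3 of the double heterozygotes and sample 1 of the Sox9 heterozygotes stood farthest apart (r = -0.595 between profiles centred on the mean of the 9 arrays), and a fit of array quality gave them the lowest weights, 0.27 and 0.485. Counts of members called are therefore also given without these samples, a choice made after the data were seen.

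**Figure D1:**
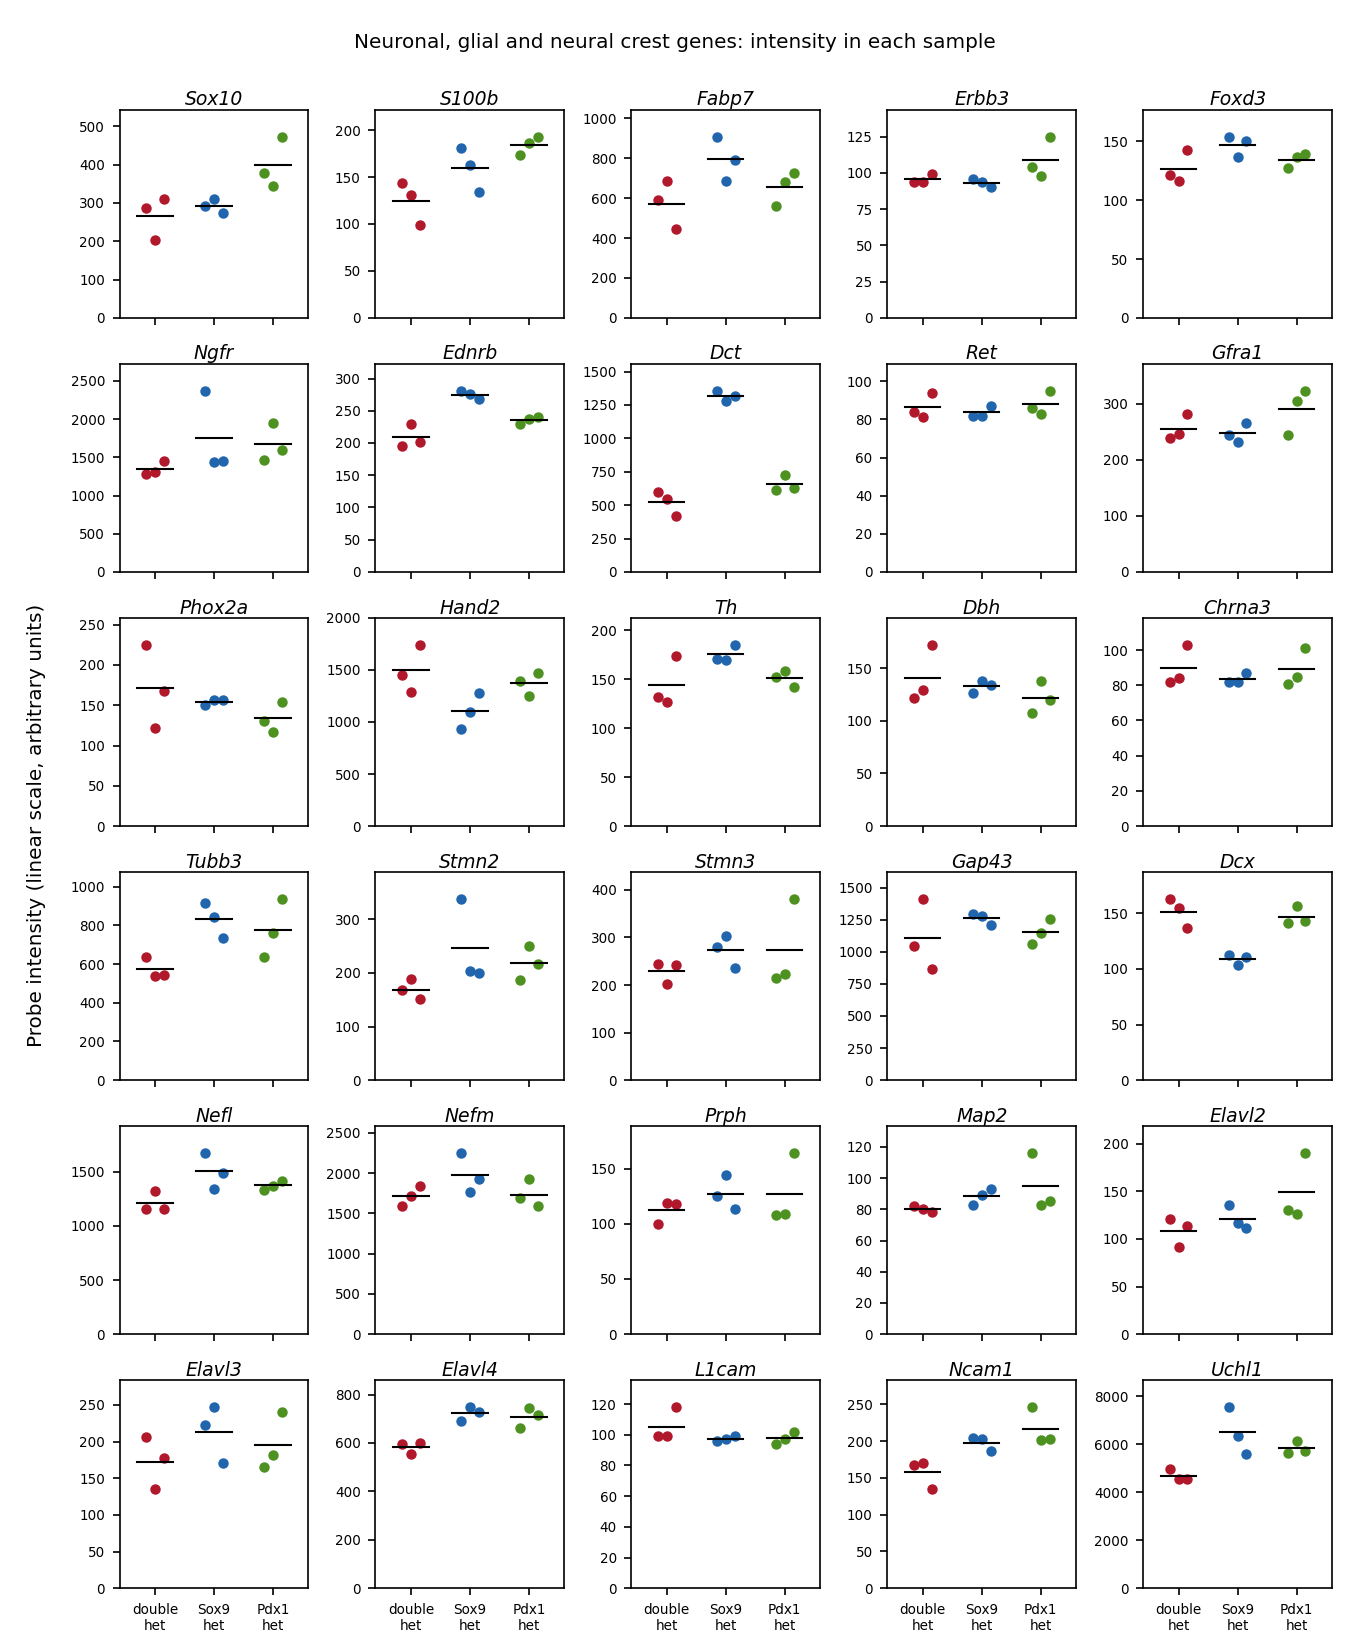
Probe intensity (linear scale, arbitrary units) of each of the 30 genes in every sample of the double, Sox9 and Pdx1 heterozygotes, with a bar at each group's mean of 3 samples. Each panel has its own axis from 0, since intensities of different probes cannot be set against each other. Dct stands at 1281 to 1356 in Sox9 heterozygotes, clear of every sample of the other groups.

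The comparison of double with Sox9 heterozygotes asks how the loss of a Pdx1 allele added to that of a Sox9 allele. Of the 30 neural genes, 1 fell (Dct) and 0 rose at an adjusted p under 0.05 in limma's fit, while 0.216% of all 18541 genes fell and 0.0917% rose. At an unadjusted p under 0.05, 12 members were lower and 2 were higher, against 13.2% and 14.2% of all genes. All 3 double-heterozygote samples lay below all 3 Sox9-heterozygote samples for 9 members and above them for 2 members, against 16.7% and 18.6% of all genes. The median log2 ratio of the 30 was -0.22, against -0.00 over all genes, and 21 of the 30 had a ratio below 0, where 50.2% of all genes did. Without the pair of samples that stood apart, the count was 1 lower (Dct) and 0 higher.

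The comparison of double with Pdx1 heterozygotes asks how the loss of a Sox9 allele added to that of a Pdx1 allele. The double heterozygotes also carry Foxa3-Cre, so the allele loss and the transgene cannot be told apart here. No member passed an adjusted p of 0.05 in limma's fit (0 lower and 0 higher), while 0.0701% of all genes fell and 0.0378% rose. At an unadjusted p under 0.05, 9 members were lower and 0 were higher, against 8.38% and 7.77% of all genes. The authors' deposited table placed 10 members below and 0 above at an FDR under 0.05, against 8.94% and 8.31% of all genes. The samples did not overlap for 11 members, all lower in double heterozygotes, against 11.4% of all genes in that direction and 11.6% in the other. The median log2 ratio of the 30 was -0.18, against 0.01 over all genes, and 24 of the 30 were below 0, where 47.8% of all genes were. The count was 0 in both directions without the pair of samples that stood apart. Both comparisons use the same double-heterozygote samples, so their ratios are not independent of each other.

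**Figure D2:**
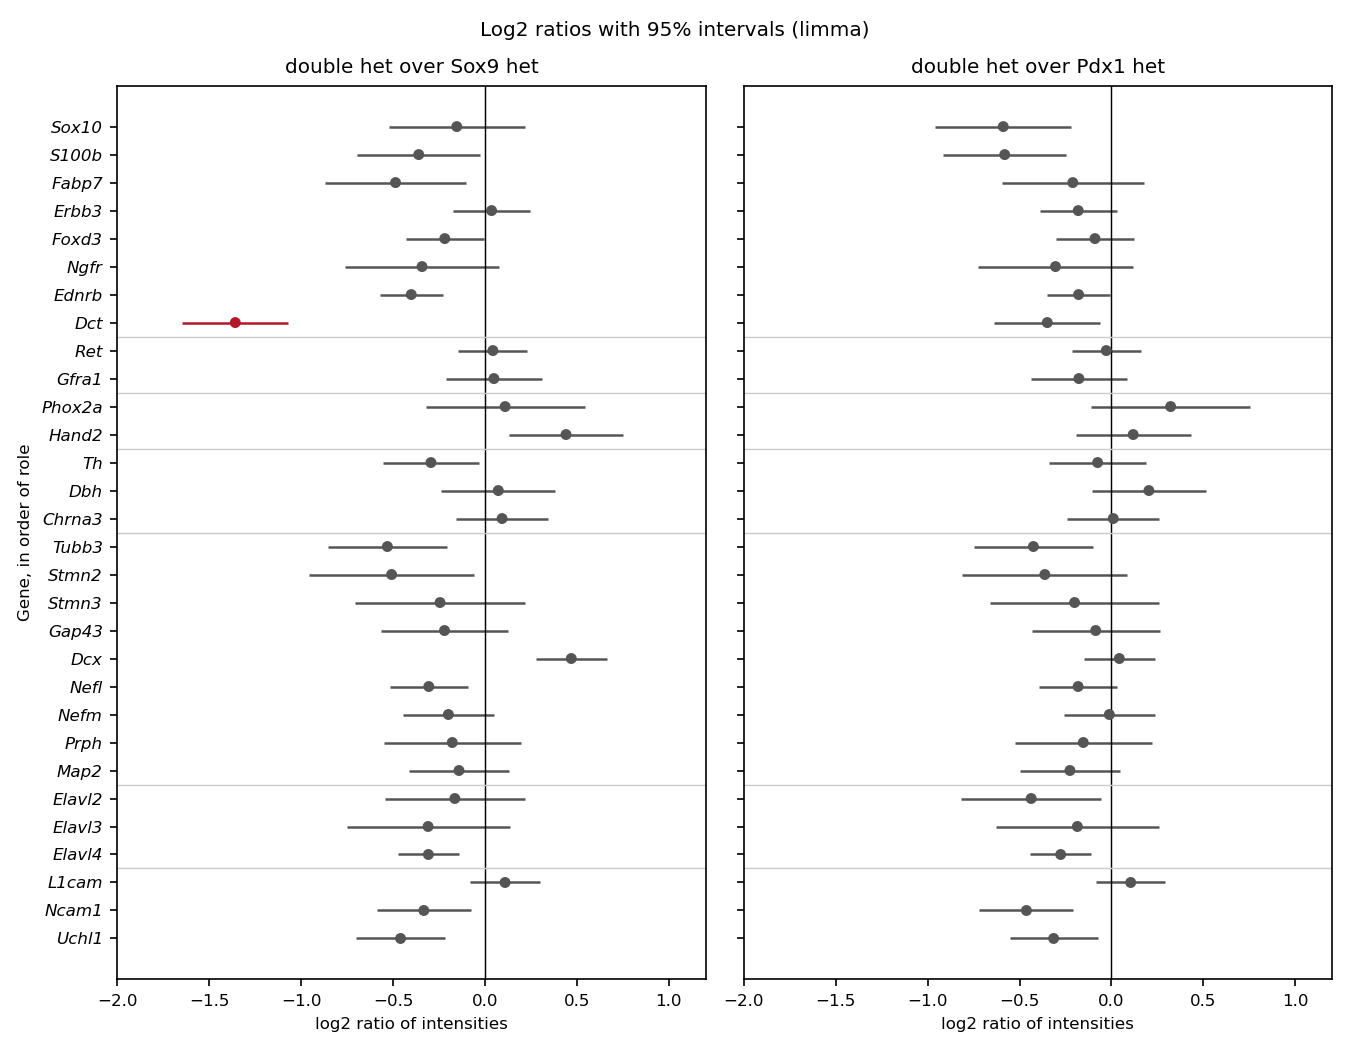
Log2 ratio of intensities of each gene in double over Sox9 heterozygotes and in double over Pdx1 heterozygotes, with its 95% interval from limma (n = 3 samples per group). Genes run down in the order of their roles, grey lines part the roles, and red marks an adjusted p under 0.05. Dct at -1.36 over Sox9 heterozygotes is the single red point, and most other points lie between -0.6 and 0.

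Dct had intensities of 598, 545 and 417 in double heterozygotes, 1356, 1281 and 1320 in Sox9 heterozygotes and 615, 726 and 629 in Pdx1 heterozygotes. The Sox9 heterozygotes thus held the high values, and the double heterozygotes lay below every sample of both other groups. Dct fell to 520.0 ± 93.1 units in double heterozygotes, against 1319 ± 37.5 in Sox9 heterozygotes (SD, n = 3 each), a log2 ratio of -1.36 with a 95% interval from -1.65 to -1.07 (adjusted p = 0.00796, limma). That is 0.39 times the level in Sox9 heterozygotes. It stayed under an adjusted p of 0.05 whichever single sample was left out (limma, adjusted p between 0.00428 and 0.0421), but reached 0.078 where the Pdx1 heterozygotes took no part in the estimate of spread. The log2 ratio of double over Pdx1 heterozygotes, which averaged 656.7 ± 60.5 units (SD, n = 3), was -0.35 ± 0.13 (SE) and did not pass (adjusted p = 0.252, limma). Without sample 3 of the double heterozygotes this ratio was -0.20.

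**Figure D3:**
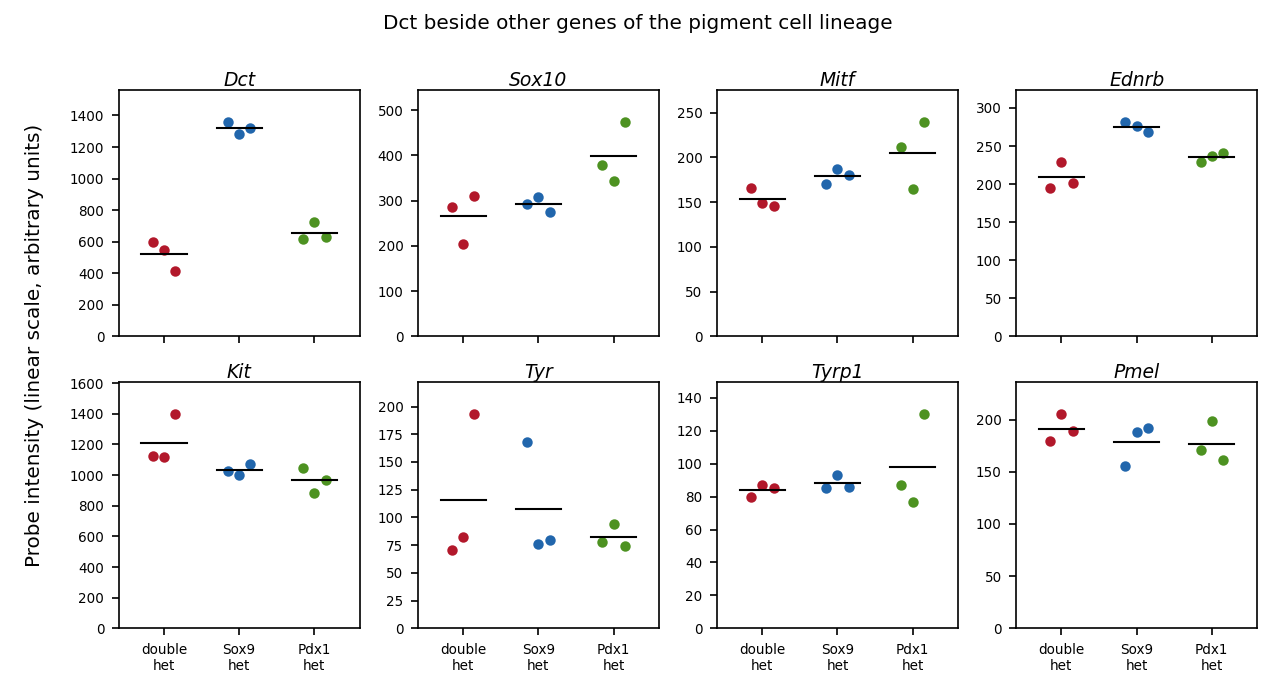
Probe intensity (linear scale, arbitrary units) of Dct and 7 other genes of the pigment cell lineage in every sample of the double, Sox9 and Pdx1 heterozygotes, with bars at the means of 3 samples. Dct is at 1281 to 1356 in Sox9 heterozygotes and at 417 to 726 elsewhere, while Ednrb is at 268 to 281 against 195 to 241 and the Sox9 heterozygotes of the other 6 genes are not above all other samples.

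Other genes of pigment cells were read beside Dct, from a list of crest and glial genes that are no members. Mitf, the transcription factor of the pigment lineage, read 166, 149 and 146 in double heterozygotes, 170, 187 and 180 in Sox9 heterozygotes and 211, 165 and 239 in Pdx1 heterozygotes. Tyrp1, another melanin enzyme, read 80, 87 and 85 in double heterozygotes, 85, 93 and 86 in Sox9 heterozygotes and 87, 77 and 130 in Pdx1 heterozygotes, near or below the lower quartile of the arrays. Kit, a receptor of melanoblasts, read 1123, 1115 and 1397 in double heterozygotes, 1025, 1003 and 1075 in Sox9 heterozygotes and 1048, 885 and 966 in Pdx1 heterozygotes. Every double heterozygote thus lay above every other sample for Kit, the opposite direction to Dct. None of Mitf, Kit, Tyr, Tyrp1 and Pmel passed an adjusted p of 0.05 in limma's fit in either comparison of the double heterozygotes. In the authors' deposited table Mitf (log2 ratio -0.40, FDR 0.00774) and Kit (0.32, FDR 0.0141) lay under 0.05 over Pdx1 heterozygotes. None of these genes did over Sox9 heterozygotes. These genes are named for their role beside Dct, after their values had been seen.

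Among the glial and crest genes, Sox10, the transcription factor that maintains crest cells and glia, had intensities of 286, 204 and 310 in double heterozygotes, 293, 309 and 275 in Sox9 heterozygotes and 378, 344 and 473 in Pdx1 heterozygotes. Double and Sox9 heterozygotes overlapped, while every double-heterozygote sample lay below the Pdx1 heterozygotes. The log2 ratio of the double heterozygotes over Pdx1 heterozygotes was -0.59 with a 95% interval from -0.96 to -0.22, which did not pass over all genes (unadjusted p = 0.00546, adjusted p = 0.173, limma).

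S100b, a calcium-binding protein of glia, read 144, 131 and 99 in double heterozygotes, 181, 163 and 134 in Sox9 heterozygotes and 174, 186 and 193 in Pdx1 heterozygotes. The double heterozygotes were again below every Pdx1 heterozygote and overlapped the Sox9 heterozygotes. Its log2 ratio over Pdx1 heterozygotes was -0.58 (adjusted p = 0.149, limma).

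Ednrb, the endothelin receptor that crest cells need to migrate and survive, had 195, 229 and 202 units in double heterozygotes, 281, 276 and 268 in Sox9 heterozygotes and 229, 237 and 241 in Pdx1 heterozygotes. As with Dct, the Sox9 heterozygotes were above all other samples. The log2 ratio of double over Sox9 heterozygotes was -0.40 with a 95% interval from -0.57 to -0.23 (adjusted p = 0.0799, limma). It passed in 1 of the 9 fits that left out a sample, the one without sample 2 of the double heterozygotes (adjusted p = 0.0492, limma).

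Fabp7, a fatty acid binding protein of glial precursors, read 590, 684 and 443 in double heterozygotes, 908, 684 and 792 in Sox9 heterozygotes and 559, 681 and 727 in Pdx1 heterozygotes, and the groups overlapped. Ngfr, the low-affinity neurotrophin receptor of crest cells, read 1282, 1309 and 1446 in double heterozygotes, 2372, 1437 and 1452 in Sox9 heterozygotes and 1464, 1947 and 1603 in Pdx1 heterozygotes. The high Sox9-heterozygote mean of Ngfr came from sample 1, and the double heterozygotes lay below all Pdx1 heterozygotes. Foxd3, a transcription factor of early crest, ranged from 116 to 143 in double heterozygotes, from 137 to 154 in Sox9 heterozygotes and from 127 to 139 in Pdx1 heterozygotes. Erbb3, the neuregulin receptor of glial precursors, ranged from 94 to 99 in double heterozygotes, from 90 to 96 in Sox9 heterozygotes and from 98 to 125 in Pdx1 heterozygotes. Over the 8 glial and crest members, 1 fell in the comparison with Sox9 heterozygotes (0.216% of all genes did) and 0 in that with Pdx1 heterozygotes (0.0701%, limma). At an unadjusted p under 0.05, 5 were lower over Sox9 heterozygotes (13.2% of all genes) and 4 over Pdx1 heterozygotes (8.38%). The authors' deposited table put 4 of the 8 lower over Sox9 heterozygotes (11.1% of all genes) and 4 over Pdx1 heterozygotes (8.94%) at an FDR under 0.05. Their median log2 ratios were -0.35 over Sox9 heterozygotes and -0.26 over Pdx1 heterozygotes.

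Ret and Gfra1 encode the kinase and the co-receptor through which crest-derived cells respond to GDNF. Ret ranged from 81 to 94 in double heterozygotes, from 82 to 87 in Sox9 heterozygotes and from 83 to 95 in Pdx1 heterozygotes, below the lower quartile of the arrays. Gfra1 had 239, 246 and 282 units in double heterozygotes, 244, 231 and 266 in Sox9 heterozygotes and 244, 304 and 323 in Pdx1 heterozygotes. The groups overlapped for both genes, and the 95% interval of the log2 ratio of Gfra1 in double over Pdx1 heterozygotes ran from -0.44 to 0.09.

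Hand2, a basic helix-loop-helix factor of sympathetic neurons that is also made in gut mesenchyme, was 1 of 9 members above 0 over Sox9 heterozygotes. It read 1455, 1291 and 1741 in double heterozygotes, 936, 1096 and 1275 in Sox9 heterozygotes and 1394, 1246 and 1472 in Pdx1 heterozygotes. Every double heterozygote lay above every Sox9 heterozygote, with a log2 ratio of 0.44 and a 95% interval from 0.13 to 0.75 (adjusted p = 0.115, limma), and overlapped the Pdx1 heterozygotes. Phox2a, a homeodomain factor of autonomic neurons, read 225, 122 and 168 in double heterozygotes, 150, 156 and 157 in Sox9 heterozygotes and 131, 117 and 154 in Pdx1 heterozygotes, and the spread within the double heterozygotes spanned both other groups.

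Of the genes of transmitter synthesis and reception, Th, the rate-limiting enzyme of catecholamine synthesis, read 132, 127 and 174 in double heterozygotes, 171, 170 and 185 in Sox9 heterozygotes and 152, 158 and 142 in Pdx1 heterozygotes. Its log2 ratio of -0.29 in double over Sox9 heterozygotes did not pass (adjusted p = 0.156, limma). Dbh, which makes noradrenaline from dopamine, ranged from 122 to 172 in double heterozygotes, from 126 to 138 in Sox9 heterozygotes and from 107 to 138 in Pdx1 heterozygotes. Chrna3, a nicotinic receptor subunit of autonomic ganglia, ranged from 82 to 103 in double heterozygotes, from 82 to 87 in Sox9 heterozygotes and from 81 to 101 in Pdx1 heterozygotes. For Dbh and Chrna3 the highest double-heterozygote value was that of sample 3.

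Tubb3, the neuronal beta-tubulin, had 637, 541 and 546 units in double heterozygotes, 917, 845 and 733 in Sox9 heterozygotes and 639, 760 and 937 in Pdx1 heterozygotes. The double heterozygotes lay below all 6 other samples, though 1 Pdx1 heterozygote came within 2 units of the highest of them. The log2 ratio was -0.53 with a 95% interval from -0.85 to -0.21 over Sox9 heterozygotes (adjusted p = 0.104, limma), and -0.42 over Pdx1 heterozygotes (adjusted p = 0.233, limma).

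Dcx, the doublecortin that binds microtubules in migrating neurons, ran the other way. It read 163, 155 and 137 in double heterozygotes, 113, 104 and 111 in Sox9 heterozygotes and 141, 157 and 143 in Pdx1 heterozygotes. The Sox9 heterozygotes were the low group, below all samples of the others. The log2 ratio of double over Sox9 heterozygotes was 0.47 with a 95% interval from 0.28 to 0.66 (adjusted p = 0.0715, limma), and that of double over Pdx1 heterozygotes was 0.04. It passed where genes below the lower quartile of mean level were left out of the test (adjusted p = 0.0482, limma).

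The stathmins destabilise microtubules in growing axons. Stmn2 read 168, 188 and 151 in double heterozygotes, 338, 204 and 199 in Sox9 heterozygotes and 186, 251 and 217 in Pdx1 heterozygotes. Double heterozygotes were below all Sox9 heterozygotes, and without sample 1 of the Sox9 heterozygotes the log2 ratio was -0.26 in place of -0.51. Stmn3 ranged from 203 to 244 in double heterozygotes, from 236 to 303 in Sox9 heterozygotes and from 214 to 381 in Pdx1 heterozygotes.

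The neurofilament light chain Nefl read 1160, 1324 and 1158 in double heterozygotes, 1673, 1345 and 1493 in Sox9 heterozygotes and 1335, 1373 and 1415 in Pdx1 heterozygotes. The double heterozygotes lay below all other samples, with log2 ratios of -0.31 over Sox9 heterozygotes (adjusted p = 0.113, limma) and -0.18 over Pdx1 heterozygotes. Its partner, the medium chain Nefm, read 1598, 1721 and 1836 in double heterozygotes, 2250, 1765 and 1925 in Sox9 heterozygotes and 1686, 1925 and 1593 in Pdx1 heterozygotes, and overlapped in both comparisons.

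The remaining cytoskeletal and growth cone members did not separate or were dim. Gap43, a growth cone protein, ranged from 865 to 1412 in double heterozygotes, from 1210 to 1298 in Sox9 heterozygotes and from 1059 to 1252 in Pdx1 heterozygotes. Prph, an intermediate filament of peripheral neurons, ranged from 100 to 119 in double heterozygotes, from 113 to 144 in Sox9 heterozygotes and from 108 to 164 in Pdx1 heterozygotes. Map2, a microtubule protein of dendrites, ranged from 78 to 82 in double heterozygotes, from 83 to 93 in Sox9 heterozygotes and from 83 to 116 in Pdx1 heterozygotes, all at or below the lower quartile of the arrays. Of the 9 members of this role, 0 were called in either comparison of the double heterozygotes (limma). Over Sox9 heterozygotes 3 were lower and 1 was higher at an unadjusted p under 0.05 (13.2% and 14.2% of all genes), and 1 was lower over Pdx1 heterozygotes (8.38%). The authors' deposited table put 2 lower and 1 higher over Sox9 heterozygotes (11.1% and 12.0% of all genes) and 2 lower over Pdx1 heterozygotes (8.94%) under its FDR of 0.05.

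The Elavl genes encode RNA-binding proteins that appear as neurons form. Elavl4 read 594, 556 and 601 in double heterozygotes, 692, 748 and 728 in Sox9 heterozygotes and 660, 746 and 716 in Pdx1 heterozygotes. The double heterozygotes lay below every other sample, and the groups were tight. The log2 ratio was -0.31 with a 95% interval from -0.48 to -0.14 over Sox9 heterozygotes (adjusted p = 0.0977, limma). It was -0.28 with an interval from -0.44 to -0.11 over Pdx1 heterozygotes (adjusted p = 0.162, limma).

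Elavl2 read 121, 91 and 114 in double heterozygotes, 136, 117 and 111 in Sox9 heterozygotes and 130, 126 and 190 in Pdx1 heterozygotes, so only the comparison with Pdx1 heterozygotes was free of overlap. Elavl3 ranged from 135 to 206 in double heterozygotes, from 171 to 247 in Sox9 heterozygotes and from 165 to 241 in Pdx1 heterozygotes. All 3 Elavl members had a log2 ratio below 0 in both comparisons, and none was called by limma. In the comparison with Sox9 heterozygotes 1 was lower at an unadjusted p under 0.05 (13.2% of all genes) and in that with Pdx1 heterozygotes 2 were (8.38%). The authors' deposited table put 1 of them lower over Sox9 heterozygotes (11.1% of all genes) and 2 over Pdx1 heterozygotes (8.94%) under its FDR of 0.05.

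Ncam1, the neural cell adhesion molecule, had 168, 170 and 135 units in double heterozygotes, 204, 203 and 186 in Sox9 heterozygotes and 246, 202 and 203 in Pdx1 heterozygotes. The double heterozygotes lay below all 6 other samples. The log2 ratio was -0.33 over Sox9 heterozygotes (adjusted p = 0.125, limma). Over Pdx1 heterozygotes it was -0.46 with a 95% interval from -0.72 to -0.21, and its adjusted p of 0.144 was the lowest of the 30 members in that comparison (limma).

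Uchl1, a ubiquitin hydrolase abundant in neurons and in neuroendocrine cells, read 4969, 4556 and 4540 in double heterozygotes, 7539, 6320 and 5609 in Sox9 heterozygotes and 5613, 6146 and 5730 in Pdx1 heterozygotes. It showed the same order, with every double heterozygote below every other sample. The log2 ratios were -0.46 over Sox9 heterozygotes (adjusted p = 0.0954, limma) and -0.31 over Pdx1 heterozygotes (adjusted p = 0.235, limma). L1cam, an adhesion protein of axons, ranged from 99 to 118 in double heterozygotes, from 96 to 99 in Sox9 heterozygotes and from 94 to 102 in Pdx1 heterozygotes, below the lower quartile of the arrays.

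The comparison of Sox9 with Pdx1 heterozygotes sets the single heterozygotes beside each other. Of the 30 members, 1 rose (Dct) and 0 fell at an adjusted p under 0.05 in limma's fit, while 0.151% of all genes rose and 0.0809% fell. The log2 ratio of Dct was 1.01 with a 95% interval from 0.72 to 1.30 (adjusted p = 0.018, limma). The call was lost in each of the 6 fits without a Sox9 or a Pdx1 heterozygote, with log2 ratios between 0.96 and 1.08 and an adjusted p between 0.0671 and 0.11 (limma). At an unadjusted p under 0.05, 2 members were higher (Dct, Ednrb) and 4 were lower (Sox10, Erbb3, Hand2, Dcx), against 3.57% and 2.72% of all genes. The samples did not overlap for 3 members that were higher in Sox9 heterozygotes (Dct, Ednrb, Th) and for 3 that were lower (Sox10, Erbb3, Dcx), against 6.54% and 6.04% of all genes. White blood cell markers were also on the higher side in Sox9 heterozygotes, with 16 of 16 above 0, a median log2 ratio of 0.21 and no overlap of samples for 10, though 0 were called and 1 had an unadjusted p under 0.05 (limma). Their mean log2 level relative to the 9 arrays was 0.192, 0.138 and 0.080 in Sox9 heterozygotes, against -0.183, -0.041 and -0.113 in Pdx1 heterozygotes, and their part in the value of Dct was not tested.

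Other genes of the same cells and pathways were counted from 3 lists that hold no member. Of 28 measured genes of glia, crest and pigment cells, 0 passed an adjusted p of 0.05 in either comparison of the double heterozygotes (limma). Over Sox9 heterozygotes 6 of them were lower and 2 higher at an unadjusted p under 0.05 (13.2% and 14.2% of all genes), and over Pdx1 heterozygotes 5 were lower and 3 higher (8.38% and 7.77%). The authors' deposited table put 6 lower and 2 higher over Sox9 heterozygotes under its FDR of 0.05 (11.1% and 12.0% of all genes). It put 6 lower and 3 higher over Pdx1 heterozygotes (8.94% and 8.31%). Their median log2 ratio was -0.10 over Sox9 heterozygotes and -0.00 over Pdx1 heterozygotes.

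Of 58 measured neuronal genes that are no members, 0 were called by limma in either comparison. Without adjustment, 14 were lower and 5 higher over Sox9 heterozygotes at p under 0.05 (13.2% and 14.2% of all genes), and 10 were lower and 5 higher over Pdx1 heterozygotes (8.38% and 7.77%). The authors' deposited table put 18 lower and 5 higher over Sox9 heterozygotes under its FDR of 0.05 (11.1% and 12.0% of all genes). It put 10 lower and 5 higher over Pdx1 heterozygotes (8.94% and 8.31%). The medians were -0.07 over Sox9 heterozygotes and -0.06 over Pdx1 heterozygotes. Among these genes, the RNA-binding factors Celf3 and Rbfox3 are named after their values had been seen. Celf3 read 1773, 1349 and 1487 in double heterozygotes, 2374, 2116 and 2244 in Sox9 heterozygotes and 1936, 2194 and 2185 in Pdx1 heterozygotes, with the double heterozygotes below all others. Its log2 ratio over Sox9 heterozygotes was -0.55 (adjusted p = 0.0799, limma). Rbfox3, the NeuN antigen, read 230, 195 and 184 in double heterozygotes, 304, 297 and 268 in Sox9 heterozygotes and 300, 275 and 244 in Pdx1 heterozygotes, in the same order. The list was mixed in direction, with 22 of the 58 above 0 and 36 below over Sox9 heterozygotes. Over Pdx1 heterozygotes 19 were above 0 and 39 below. Tubb4a (log2 ratio 0.48) and Cplx2 (0.45), also named after their values had been seen, were higher over Sox9 heterozygotes. Their FDR in the authors' deposited table was 0.00173 and 0.00143.

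Of 18 measured ligands and partners of neural receptors, 0 were called by limma. At an unadjusted p under 0.05, 1 was lower and 3 higher over Sox9 heterozygotes (13.2% and 14.2% of all genes), and 1 was lower and 0 higher over Pdx1 heterozygotes (8.38% and 7.77%). The authors' deposited table put 0 lower and 3 higher over Sox9 heterozygotes under its FDR of 0.05 (11.1% and 12.0% of all genes). It put 1 lower and 0 higher over Pdx1 heterozygotes (8.94% and 8.31%). The medians were -0.00 over Sox9 heterozygotes and 0.00 over Pdx1 heterozygotes. Gdnf, the ligand of Ret, read 275, 242 and 338 in double heterozygotes, 251, 321 and 318 in Sox9 heterozygotes and 312, 298 and 346 in Pdx1 heterozygotes, and overlapped. Edn3, the ligand of Ednrb, read 143, 157 and 171 in double heterozygotes, 134, 141 and 143 in Sox9 heterozygotes and 105, 156 and 133 in Pdx1 heterozygotes, where the groups touch or overlap. These ligands are given for the receptors among the members.

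Markers of the other cells in the dissected tissue were counted in the same way, and 2 of them, Krt19 and Itih2, passed in double over Sox9 heterozygotes. Of 24 endocrine markers, 18 had a log2 ratio below 0 in double over Sox9 heterozygotes (50.2% of all genes). In double over Pdx1 heterozygotes 20 did (47.8% of all genes). The medians were -0.20 and -0.18, and 0 were called in each (limma). At an unadjusted p under 0.05, 5 were lower and 0 higher in each comparison, where 13.2% and 14.2% of all genes were over Sox9 heterozygotes and 8.38% and 7.77% over Pdx1 heterozygotes. The authors' deposited table put 6 lower and 1 higher over Sox9 heterozygotes under its FDR of 0.05 (11.1% and 12.0% of all genes). It put 7 lower and 0 higher over Pdx1 heterozygotes (8.94% and 8.31%). Their mean log2 level, relative to the mean of the 9 arrays, was -0.015, -0.328 and -0.049 in double heterozygotes, 0.185, -0.029 and 0.035 in Sox9 heterozygotes and 0.008, 0.016 and 0.179 in Pdx1 heterozygotes. On the same scale the 30 neural members stood at -0.100, -0.168 and -0.112 in double heterozygotes, 0.146, 0.059 and 0.026 in Sox9 heterozygotes and -0.041, 0.037 and 0.153 in Pdx1 heterozygotes. The double heterozygotes lay below the other samples for the neural members, and sample 2 of the double heterozygotes was the lowest for both lists. The lists of neural genes that are no members overlapped. Other glial and crest genes stood at -0.019, -0.014 and -0.068 in double heterozygotes, with -0.045 in sample 1 of the Pdx1 heterozygotes. Other neuronal genes stood at -0.043, -0.083 and -0.048 in double heterozygotes, with -0.050 in sample 1 of the Pdx1 heterozygotes. Chga, Chgb and Isl1 stand in both the endocrine list and that of the other neuronal genes.

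Of 21 epithelial markers, 16 had a log2 ratio above 0 over Sox9 heterozygotes and 17 over Pdx1 heterozygotes. Among all genes, 50.2% and 47.8% were below 0 in these comparisons. The medians were 0.13 over Sox9 and 0.16 over Pdx1 heterozygotes. Unadjusted p-values under 0.05 (limma) placed 8 epithelial markers higher and 2 lower over Sox9 heterozygotes (14.2% and 13.2% of all genes). They placed 4 higher and 0 lower over Pdx1 heterozygotes (7.77% and 8.38%). Krt19, a keratin of duct and progenitor epithelium, was the 1 epithelial marker called higher over Sox9 heterozygotes (0.0917% of all genes were). It read 2167, 1828 and 2548 in double heterozygotes against 1111, 1243 and 1285 in Sox9 heterozygotes (adjusted p = 0.0341, limma). Of 14 liver markers, 12 were above 0 over Sox9 heterozygotes and 13 over Pdx1 heterozygotes, with medians of 0.34 over Sox9 and 0.39 over Pdx1 heterozygotes. Unadjusted p-values under 0.05 (limma) placed 6 liver markers higher and 1 lower over Sox9 heterozygotes (14.2% and 13.2% of all genes). They placed 8 higher and 0 lower over Pdx1 heterozygotes (7.77% and 8.38%). The plasma protein gene Itih2 was the 1 liver marker called higher over Sox9 heterozygotes (0.0917% of all genes were). It read 854, 839 and 1387 in double heterozygotes against 314, 351 and 493 in Sox9 heterozygotes (adjusted p = 0.0386, limma). The 16 white blood cell markers had medians of -0.18 over Sox9 heterozygotes and 0.07 over Pdx1 heterozygotes. In the same order of comparisons, the 22 mesenchymal markers had medians of -0.08 and -0.06 and the 13 endothelial markers 0.00 and 0.09. The 12 erythroid markers had medians of 0.17 and 0.20 and a mean level of 0.628 in sample 3 of the double heterozygotes, the highest of the 9 samples. The part of these shifts in the neural values was not tested.

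**Figure D4:**
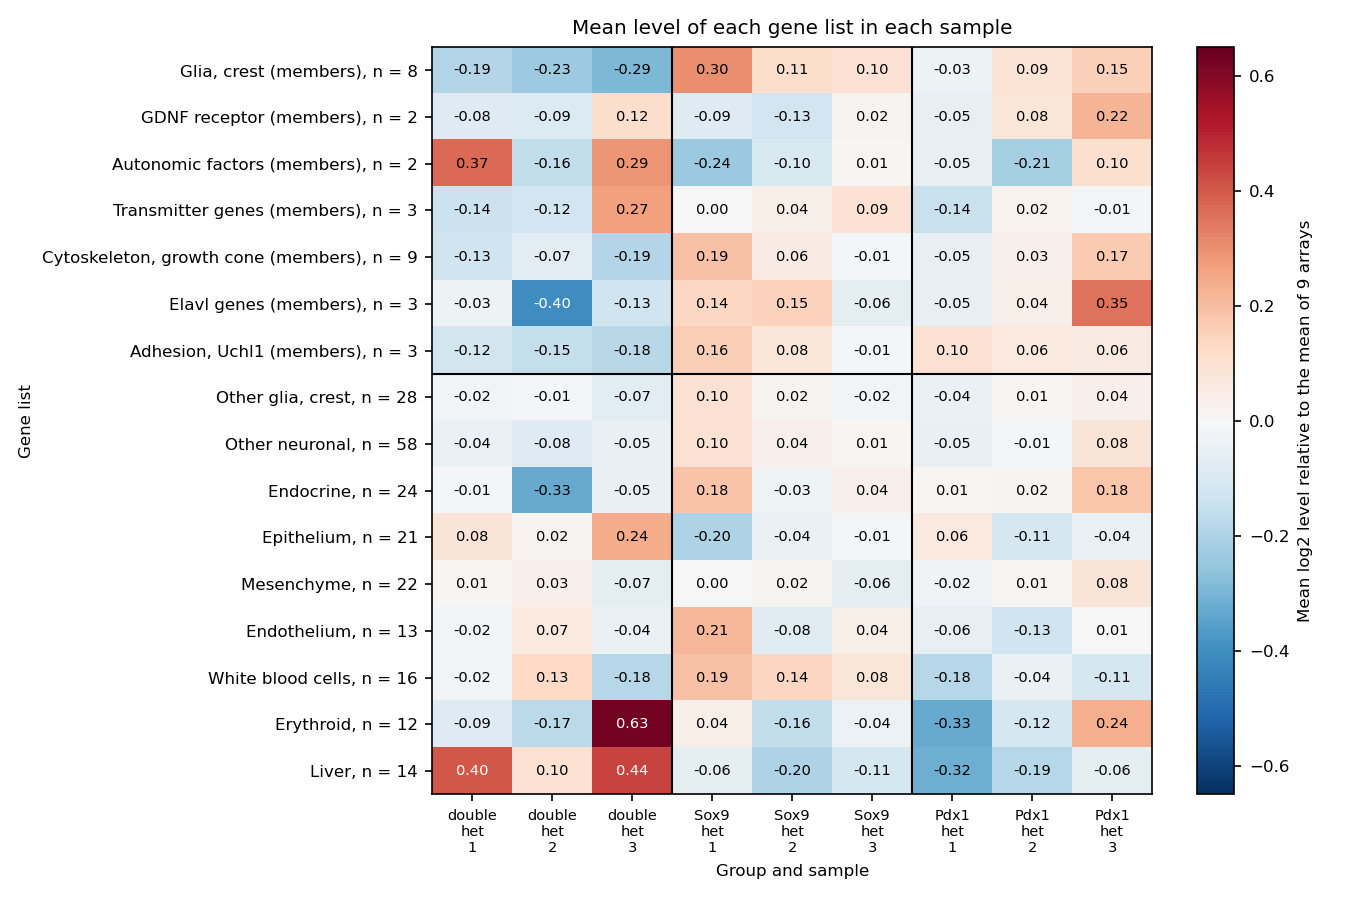
Mean log2 level of each gene list in every sample, relative to the mean of the 9 arrays, with blue below and red above 0 and the number of genes in each list at the left. The glial and crest members stand at -0.192 to -0.294 in the 3 double heterozygotes and at -0.032 to 0.303 in the other 6 samples, while the erythroid list peaks at 0.628 in sample 3 of the double heterozygotes. In the lists of other glial and crest genes and other neuronal genes the double heterozygotes overlap the other samples.

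The authors' deposited table gives a log2 ratio and an FDR for each comparison of the double heterozygotes. Its log2 ratios equal the differences of the group means of log2 intensity within 4.27e-08 over all 18541 genes, so for these comparisons the fit to all 9 samples has the same ratios as the authors' deposited table. The FDR of the authors' deposited table lies under 0.05 for far more genes than limma's adjusted p does on the same values. Over Sox9 heterozygotes the authors' deposited table put 10 of the 30 members lower and 2 higher (Hand2, Dcx), against 11.1% and 12.0% of all genes. Over Pdx1 heterozygotes it was 8.94% of all genes lower and 8.31% higher in the authors' deposited table, beside its 10 and 0 members. Dct had an FDR of 9.31e-08 over Sox9 heterozygotes and 0.0279 over Pdx1 heterozygotes in the authors' deposited table. Sox10 had 0.000223 over Pdx1 heterozygotes in the authors' deposited table, where limma's adjusted p was 0.173. The sources used here do not say how that FDR was computed, and the cause of the gap was not tested.

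**Figure D5:**
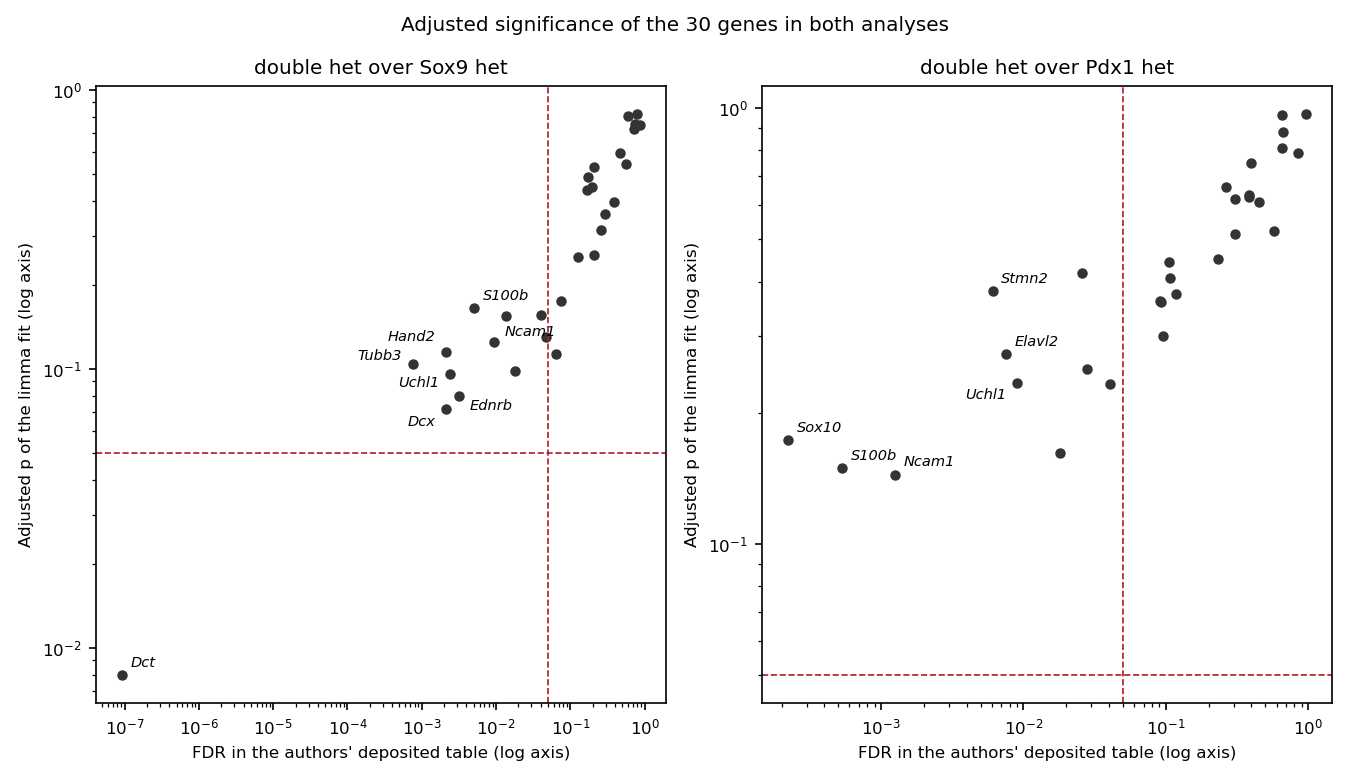
FDR in the authors' deposited table (horizontal, log axis) against the adjusted p of limma's fit to the deposited intensities (vertical, log axis) for the 30 genes in double over Sox9 and double over Pdx1 heterozygotes, with dashed lines at 0.05 and names for an FDR under 0.01. Dct alone lies under both lines, on the left, and Sox10 at an FDR of 0.000223 has an adjusted p of 0.173 on the right.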

How the data were processed

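Total RNA was labelled with Cy3 and hybridised to 1-colour Agilent arrays, per the labels' protocols, and samples were grouped by the genotype in their labels. The authors deposited a value table of linear, whole-number probe intensities, with 1 probe per gene after joining to their gene table, and the sources used here do not state their normalization. The near-equal quantiles of the 9 arrays were read from the deposited intensities. The gene table gives log2 ratios and an FDR (q-value) per comparison, which the authors deposited per the file headers. The submitters' processing notes name limma with no version. A further 9 columns of array values in that table carry array names that no label holds, and they were not used.

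Intensities were put on log2 and fitted with limma 3.58.1 (lmFit, eBayes) in R 4.3.3 over all 9 samples, without a replicate block, and p-values were adjusted by Benjamini-Hochberg over the 18541 genes. A gene was called at an adjusted p under 0.05. RefSeq's gene table gave a current symbol through Entrez numbers for 17183 of 18541 genes, and 4384 symbols changed. The 30 members, their roles and all lists were chosen with earlier results of these data known. All members are named. Genes outside them were to be named where called, up to 4 per list, and the text departs from that rule. Epcam, Foxa3, Sox9 and Pdx1 were read beside the tissue and genotype labels. Gdnf and Edn3 were read as ligands of Ret and Ednrb. Other genes given with values but not called are said to be named after their values had been seen. The script was tested on simulated data. The replicate numbers in the labels were not taken to pair samples, since the labels do not say that a number marks a litter. Same-numbered samples of different groups had deviations correlated between -0.177 and 0.239, above 0.1 in 4 of 9 pairs. For differently numbered samples of different groups the correlations ran from -0.294 to 0.221. These values do not settle whether a number marks a pair. Alternatives were other normalizations, an intensity trend, array weights, a filter on dim genes, other thresholds, the 2 groups compared alone, the authors' FDR, a replicate block and leaving out samples. The number of arrays limits the precision.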

Additional observations from a re-analysis of the deposited data

How the results depend on the processing

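Over 20 alternatives to each result (19 for Sox9 over Pdx1 heterozygotes), quantile normalization, centring on the median and an intensity trend moved no count of calls by over 1.5 times and ended no member's call. In double over Sox9 heterozygotes, 1 member was lower and 0 were higher. Array weights gave 7 lower and 2 higher members, with 1490 lower and 1529 higher among all genes (40 and 17 without weights). These weights were computed gene by gene, a method chosen after limma's default did not converge. Sample 2 of the Sox9 heterozygotes had a weight of 8.34, against 0.27 to 1.54 for the other arrays. Within its group, the weighted fit thus rests largely on that sample. Leaving out genes below the lower quartile of mean level gave 1 higher member, Dcx, and 62 lower and 30 higher genes. Fitting only the 2 groups gave 0 lower members, 3 lower and 0 higher genes. A threshold of 0.1 gave 4 lower and 1 higher members and 276 lower and 187 higher genes, and one of 0.01 gave 5 lower and 0 higher genes. The authors' deposited table gave 10 lower and 2 higher members, with 2064 lower and 2228 higher genes. Leaving out 1 sample gave 1 to 2 lower and 0 higher members, the addition being Ednrb without sample 2 of the double heterozygotes, with 4 to 42 lower and 0 to 26 higher genes. Without sample 3 of the double and sample 1 of the Sox9 heterozygotes there were 8 lower and 5 higher genes. In double over Pdx1 heterozygotes, all alternatives gave 0 members in both directions, except the authors' deposited table with 10 lower, beside 1658 lower and 1541 higher genes (13 and 7 by limma). The filter on dim genes gave 32 lower and 11 higher genes, the 2 groups alone 1 and 1, a threshold of 0.01 also 1 and 1, one of 0.1 gave 58 and 20, leaving out 1 sample 0 to 6 and 1 to 4, and leaving out the pair 0 and 2. In Sox9 over Pdx1 heterozygotes (1 higher and 0 lower members, 28 higher and 15 lower genes), array weights gave 1 lower member, Dcx, with 119 higher and 74 lower genes. A threshold of 0.01 gave 0 higher members, 4 higher and 1 lower genes, and one of 0.1 gave 45 higher genes. The 2 groups alone gave 40 higher and 19 lower genes, with Dct at an adjusted p of 0.00712 (limma). Leaving out 1 sample gave 0 to 1 higher members, 3 to 47 higher and 1 to 24 lower genes, and leaving out the pair 8 lower genes. With the replicate number as a block, the members called remained 1 lower (Dct), 0, and 1 higher (Dct) in these comparisons, and all genes were 43 lower and 14 higher, 11 lower and 5 higher, and 7 lower and 11 higher. A sample correlated best with the one of its own number in 9 of 18 choices, each among the 3 samples of another group. The cause of these changes was not tested. With 3 arrays per group and 5 members below the lower quartile of mean level, small differences could not be resolved.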
